A study of Mus musculus with 28 samples.

Results

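RNA of 9 mouse enzymes was followed in kidney cortex, with duodenum for comparison, across 3 genotypes of the vitamin D receptor gene Vdr. The 9 symbols stood among 30227 in the kidney table and 31179 in the duodenum table, which together held 34135. Of them, Hal, Uroc1, Amdhd1 and Ftcd break down histidine. Ftcd, Mthfd1, Aldh1l1 and Shmt1 handle the one-carbon units that are carried on folate, and Bhmt and Bhmt2 remethylate homocysteine to methionine. Amdhd1, Ftcd and Bhmt had been picked because their counts differed in the kidneys of the mutant mice, so they were chosen by the same kidney counts that are described below, and no test of those differences is given. The other 6 were taken for their place in the same pathway, with earlier results of these data already known.

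Histidine is degraded in a chain. Hal (histidine ammonia-lyase) removes ammonia to give urocanate, Uroc1 (urocanate hydratase) adds water, Amdhd1 (imidazolonepropionase) opens the ring to give formiminoglutamate, and Ftcd (formimidoyltransferase cyclodeaminase) passes the formimino carbon to tetrahydrofolate. Mthfd1 then interconverts the oxidation states of the folate-bound carbon, Aldh1l1 releases it as carbon dioxide, and Shmt1 moves it between serine and glycine. These enzymes are best known from liver, and proximal tubule cells of the kidney carry several of them.

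The samples came from 8-week-old female mice on the diet TD.96348, a rescue diet high in calcium, phosphate and lactose that all groups received. Each tissue had 6 wild-type samples (Vdr+/+, WT), 4 from receptor-null mice (Vdr-/-, named demay in the file headers, KO) and 4 from mice labelled Vdr AF2 or delta AF2 (AF2). In the AF2 mice the study set receptor signalling that does not depend on coactivators against absence of the receptor. The labels do not name separate animals, so p-values measure the spread between these samples. Libraries were 3′ end counts and held 3725648 to 6492228 counts in kidney and 3713352 to 25181916 in duodenum, where the next deepest library after WT 2 held 6519522. Levels are CPM, the counts of a gene scaled to the size of its library, and they are compared between samples of the same gene only. Vdr itself lay at 177 to 212 CPM in WT kidney, 64.8 to 91.9 in AF2 and 7.94 to 22.1 in KO. In duodenum it lay at 267 to 646 CPM in WT, 362 to 432 in AF2 and 97.3 to 120 in KO. The proximal tubule markers Lrp2, Cubn, Slc34a1, Slc5a2, Slc5a12 and Gatm were all present in kidney, with summed levels of 5447 to 6249 CPM in WT, 4919 to 5834 in KO and 4341 to 5353 in AF2. All 5 enterocyte markers were present in duodenum.

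Several of the genes lie close together on the mm10 genome (GENCODE gene spans). Hal (chr10:93488768-93519304, plus strand) and Amdhd1 (chr10:93523338-93540033, minus strand) face each other tail to tail, 4033 bases apart with 0 genes between them. Bhmt (chr13:93616675-93637961) and Bhmt2 (chr13:93655720-93674302) both lie on the minus strand, 17758 bases apart with 0 genes between. Uroc1 (chr6:90333284-90364551) and Aldh1l1 (chr6:90486427-90600203) both lie on the plus strand, with 3 protein-coding genes between them. Ftcd is at chr10:76575648-76590338 on the plus strand, Mthfd1 at chr12:76255298-76319803 on the plus strand and Shmt1 at chr11:60788104-60811718 on the minus strand. The 3′ ends of Shmt1 and Aldh1l1 are overlapped on the opposite strand by Smcr8 and Gm15756. Since the use of strand in counting is not given in the sources used here, reads of those pairs cannot be told apart.

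The start-site regions of Uroc1 (chr6:90333039-90333338, plus strand), Amdhd1 (chr10:93539984-93540283, minus strand), Ftcd (chr10:76575398-76575697, plus strand) and Bhmt (chr13:93637709-93638008, minus strand) are shown because these 4 genes had the largest kidney differences from WT of the 9, taking for each the larger of its KO and AF2 differences. They are RefSeq sequences of build GRCm38.p6, from 250 bases before to 50 bases after the annotated start. Capitals mark matches, on either strand, to AGGTCA, the half-site bound by nuclear receptors, to its variants with the letters AGTTCA or the letters GGTTCA, to GTTAAT from sites of the HNF1 factor, and to CAAAGT from sites of the HNF4 factor.
Uroc1: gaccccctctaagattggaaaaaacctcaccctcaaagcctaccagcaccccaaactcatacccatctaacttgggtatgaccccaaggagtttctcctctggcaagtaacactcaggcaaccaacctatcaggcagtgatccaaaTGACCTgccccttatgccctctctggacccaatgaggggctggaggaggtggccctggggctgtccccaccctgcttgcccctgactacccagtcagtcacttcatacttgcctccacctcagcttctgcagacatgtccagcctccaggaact
Amdhd1: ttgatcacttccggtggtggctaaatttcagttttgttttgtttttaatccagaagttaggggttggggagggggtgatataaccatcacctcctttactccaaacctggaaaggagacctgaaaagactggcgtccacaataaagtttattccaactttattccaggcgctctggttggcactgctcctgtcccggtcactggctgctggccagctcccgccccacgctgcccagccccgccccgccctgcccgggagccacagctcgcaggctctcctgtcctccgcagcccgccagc
Ftcd: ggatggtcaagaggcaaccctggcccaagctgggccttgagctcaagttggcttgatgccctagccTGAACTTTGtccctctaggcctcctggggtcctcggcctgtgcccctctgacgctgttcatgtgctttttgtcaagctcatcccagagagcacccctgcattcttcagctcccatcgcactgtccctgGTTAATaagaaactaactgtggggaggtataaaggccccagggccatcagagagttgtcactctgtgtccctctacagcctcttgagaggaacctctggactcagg
Bhmt: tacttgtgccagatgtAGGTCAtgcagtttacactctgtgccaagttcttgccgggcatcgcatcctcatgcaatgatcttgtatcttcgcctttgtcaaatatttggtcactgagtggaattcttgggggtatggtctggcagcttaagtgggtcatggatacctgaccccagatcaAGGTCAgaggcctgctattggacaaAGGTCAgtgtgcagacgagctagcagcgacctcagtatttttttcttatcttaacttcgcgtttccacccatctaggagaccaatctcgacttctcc
Uroc1 held 1 AGGTCA on the minus strand at -104 to -99, where -1 is the base before the start. Bhmt held 3 AGGTCA on the plus strand, starting at -234, -72 and -47. Ftcd held AGTTCA on the minus strand at -184 to -179, overlapping a CAAAGT on the same strand at -181 to -176, and GTTAAT on the plus strand at -56 to -51. Amdhd1 held none of these letters in this window. Of 32544 promoters of this length, 16.2% held AGGTCA, 14% AGTTCA, 35% any of the 3 half-sites, 7.13% GTTAAT and 14.4% CAAAGT. A pair of half-sites spaced by 3 bases, the arrangement known for vitamin D response elements, occurred in 8 promoters (0.0246%) and in 0 of the 9 shown or searched here. A match describes the letters only.

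In kidney, Uroc1 had more RNA in both mutants, as did Amdhd1 and Ftcd, which were picked for their change. Hal, the entry enzyme of histidine breakdown, was almost undetected. Hal gave 1 read in all 6 WT libraries, 0 in the 4 KO libraries and 1 in the 4 AF2 libraries, at a pooled limit of 0.206, 0.287 and 0.323 CPM for a count of 0 in WT, KO and AF2 (3 reads). It was too low to test. Of the 9 enzymes, the other 8 passed the filter on low counts in kidney.

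Uroc1, which acts on urocanate, lay at 32.0 CPM in the lowest WT library, with a median of 37.8 and a highest value of 43.6. The 4 KO libraries held 68.5, 71.2, 70.5 and 83.2 CPM, and the 4 AF2 libraries 67.6, 57.9, 62.5 and 60.8. All 8 mutant libraries were above all 6 WT libraries. Uroc1 rose by 0.96 ± 0.12 log2 units (SE) in KO, 1.95-fold, with an edgeR adjusted p of 1.59e-05 over all genes tested. It rose by 0.72 ± 0.12 in AF2, 1.65-fold, with an edgeR adjusted p of 0.000357. In bulk tissue such as this, fewer or more cells of a type and a change of RNA per cell cannot be told apart.

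Uroc1 was the 1 enzyme called of the 5 that were not picked for their change and passed the filter in KO against WT. Over all genes, 0.844% of 13502 were called there, 0.289% higher and 0.555% lower, and groups did not overlap with KO higher for 1.7%. With AF2 in place of KO, 3 of those 5 were called, Uroc1 higher and Bhmt2 and Aldh1l1 lower, beside 2.71% of all genes (1.08% higher and 1.63% lower). Groups did not overlap with AF2 higher for 2.37% and with AF2 lower for 2.36%. KO and AF2 share the 6 WT libraries in these comparisons.

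Amdhd1, the ring-opening enzyme, was low in WT kidney, with 1 to 7 reads in each library, and higher in every mutant library. The 6 WT libraries ran from 0.56 CPM through a median of 1.45 to 3.3, from 24 reads in all. The KO libraries held 8.75, 8.23, 14.5 and 21.9 CPM, and the AF2 libraries 21.7, 20.1, 17.6 and 9.84. Every mutant library was above every WT library, and the mutants overlapped each other. The description of this picked gene is 2.99 ± 0.37 log2 units in KO (7.95-fold) and 3.35 ± 0.37 in AF2 (10.2-fold), from 144 and 155 reads.

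Ftcd, which hands the last carbon of the chain to folate, also differed in both mutants. WT libraries ran from 2.16 CPM through a median of 5.29 to 5.78. The KO libraries held 9.27, 20.2, 26.3 and 15.1 CPM, and the AF2 libraries 36.8, 23.4, 30.2 and 37.9. All mutant libraries were above all WT libraries, and 1 KO library (KO 3) was above the lowest AF2 library. As a description, Ftcd stood 1.89 ± 0.26 log2 units above WT in KO (3.71-fold) and 2.73 ± 0.25 in AF2 (6.63-fold).

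**Figure D1:**
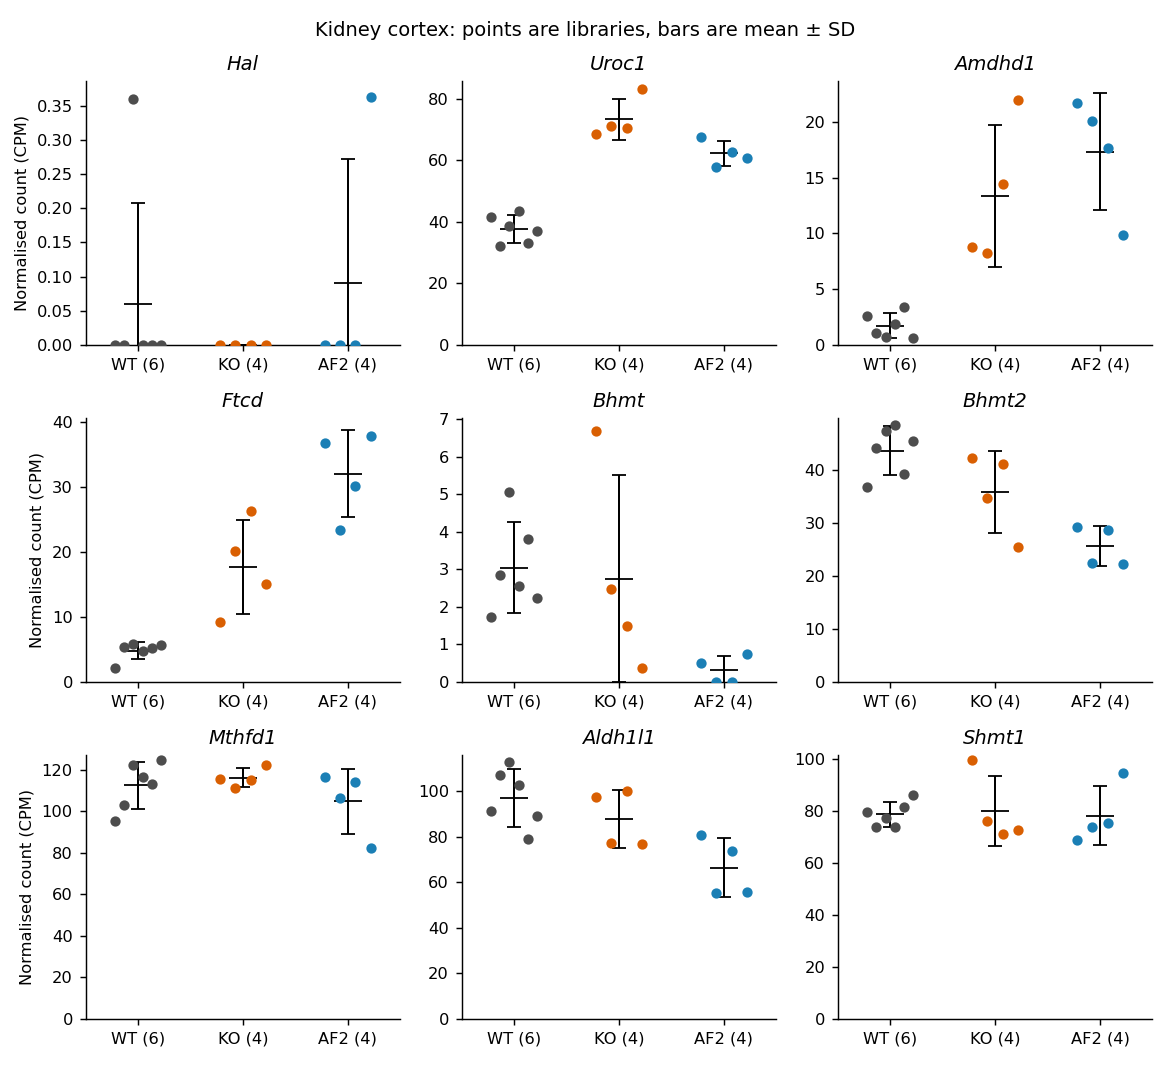
Level of each of the 9 enzymes in kidney cortex, in CPM on linear axes that start at 0, with 1 point for each of the 6 WT, 4 KO and 4 AF2 libraries and bars for the mean ± SD, cut off at 0. Uroc1, Amdhd1 and Ftcd stand above WT in all 8 mutant libraries, Bhmt2 stands below WT in all 4 AF2 libraries, and Mthfd1 and Shmt1 overlap across the genotypes.

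Among the enzymes that use the folate-bound carbon, Aldh1l1 was lower in AF2 kidney, and no difference was called for Mthfd1 or Shmt1. Aldh1l1, which oxidises formyl-tetrahydrofolate to carbon dioxide and tetrahydrofolate, ran from 78.7 CPM through a median of 96.9 to 113 in WT. The AF2 libraries held 80.7, 55.1, 73.9 and 55.7 CPM, and 3 of them were below every WT library. Aldh1l1 fell by 0.55 ± 0.13 log2 units in AF2 (1.46-fold lower, edgeR adjusted p = 0.0154). Without AF2 2 it was -0.47 with an edgeR adjusted p of 0.0853, so this call rests on that library.

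In KO, Aldh1l1 held 97.3, 77.0, 100.03 and 76.8 CPM, which overlapped WT (-0.14 ± 0.13, edgeR adjusted p = 0.751, 95% interval -0.41 to 0.12).

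Mthfd1, the trifunctional enzyme of the cytosol, ran from 95.5 CPM through 115 to 125 in WT. It held 116, 112, 115 and 123 CPM in KO and 116, 107, 114 and 82.3 in AF2. Only AF2 4 stood below the WT range. The differences were 0.05 ± 0.11 in KO (95% interval -0.18 to 0.27, edgeR adjusted p = 0.929) and -0.10 ± 0.11 in AF2 (-0.33 to 0.12, edgeR adjusted p = 0.723).

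Shmt1, the cytosolic serine hydroxymethyltransferase, ran from 74.0 CPM through 78.4 to 86.3 in WT. It held 99.9, 76.1, 71.1 and 72.6 CPM in KO and 69.1, 73.8, 75.5 and 94.7 in AF2, both spanning the WT values. Its differences were 0.02 ± 0.12 in KO (95% interval -0.22 to 0.26, edgeR adjusted p = 0.975) and -0.01 ± 0.12 in AF2 (-0.25 to 0.24, edgeR adjusted p = 0.989). These intervals leave out differences as large as that of Uroc1.

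The homocysteine methyltransferases were lower in AF2 kidney. Bhmt, which uses betaine as methyl donor, had few reads, 45 in the 6 WT libraries, 25 in the 4 KO libraries and 3 in the 4 AF2 libraries. WT libraries ran from 1.73 CPM through a median of 2.70 to 5.06. AF2 libraries held 0.50, 0, 0 and 0.73 CPM, all below the lowest WT library.

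As a description of this picked gene, the pooled read rate of Bhmt was 9.57-fold lower in AF2 than in WT, from 3 reads against 45. No interval is given for it, because the gene was chosen by these same counts. The fitted difference was -3.16 ± 0.80 log2 units. It was -2.77 without AF2 3 and -4.09 without AF2 4, which held 2 of the 3 reads. The KO libraries of Bhmt held 6.69, 2.47, 1.48 and 0.38 CPM and lay on both sides of the WT range. Their fitted difference from WT was -0.21 ± 0.59, and it moved to -1.08 without KO 1 and to 0.15 without KO 4. No direction in KO can be read from these libraries.

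Bhmt2, which uses S-methylmethionine as methyl donor and is the neighbour of Bhmt, ran from 36.7 CPM through 44.7 to 48.3 in WT. The AF2 libraries held 29.2, 22.4, 28.5 and 22.2 CPM, all below WT. Bhmt2 fell by 0.77 ± 0.16 log2 units in AF2 (1.70-fold lower, edgeR adjusted p = 0.00355). In KO it held 42.2, 34.6, 41.0 and 25.3 CPM, overlapping WT (-0.28 ± 0.15, 95% interval -0.59 to 0.03, edgeR adjusted p = 0.536). The read total of Bhmt2 in AF2 was 235, so its difference does not rest on the few reads that limit Bhmt.

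Library codes in the labels fall into 3 runs of consecutive numbers, so that each mutant shares its run with 2 WT libraries only. The labels do not say that a run is a batch. KO and AF2 share no run, so with the run as a term they are compared only through those WT libraries. Vdr itself was then not called between the mutants in kidney (2.17, edgeR adjusted p = 0.056, beside 2.26 without the term). With the run as a term, Uroc1 stayed called in KO (0.84, edgeR adjusted p = 0.0177) and AF2 (0.83, edgeR adjusted p = 0.00838). Bhmt2 (-0.72, edgeR adjusted p = 0.0997) and Aldh1l1 (-0.34, edgeR adjusted p = 0.472) did not stay called in AF2. With that term Amdhd1 was 3.37 in KO and 3.07 in AF2, Ftcd 1.76 and 2.56, and Bhmt -0.52 and -3.15.

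**Figure D2:**
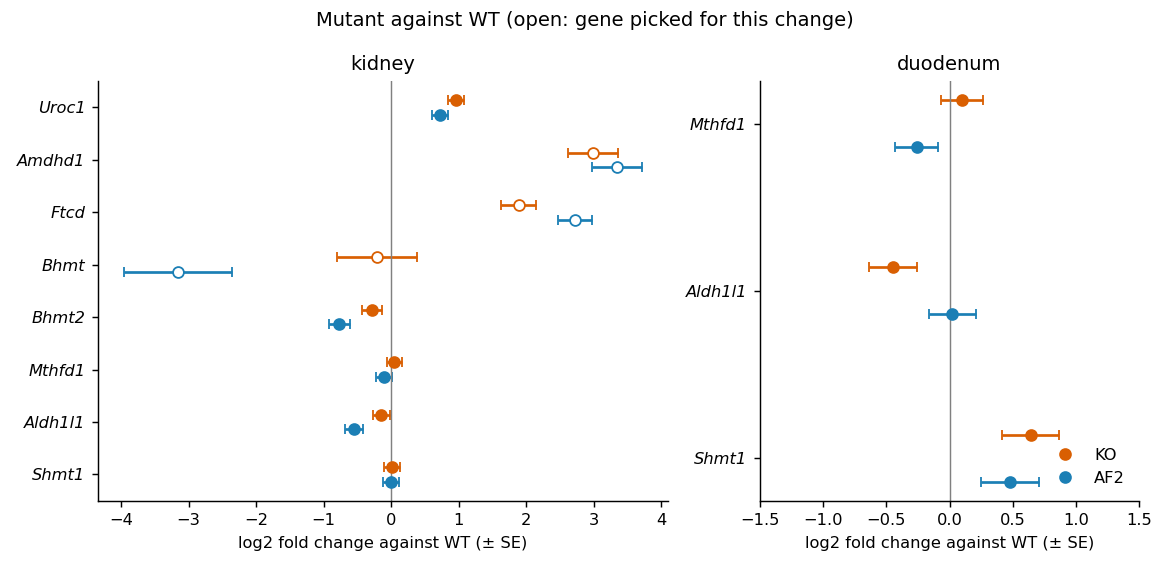
Log2 fold change of each tested enzyme against WT in kidney (left, 8 enzymes) and duodenum (right, 3 enzymes), with bars for ± SE from the edgeR fit and open circles for the 3 genes picked for their kidney change. In kidney Uroc1 lies at 0.96 in KO and 0.72 in AF2, Bhmt2 at -0.77 in AF2, and Mthfd1 and Shmt1 lie near 0 in both mutants.

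Markers of some cell types differed with the AF2 genotype. In AF2 against WT, edgeR, DESeq2 and limma-voom called 0 markers of distal convoluted tubule, collecting duct, endothelium, immune cells or smooth muscle. The summed levels of each of those lists overlapped between AF2 and WT. The 6 proximal tubule markers named above all had negative differences in AF2, with a median of -0.27, 0 called by edgeR, DESeq2 or limma-voom and 3 at an unadjusted p under 0.05. Their summed level in AF2 (4341 to 5353 CPM) lay wholly below that in WT (5447 to 6249). Of 3 thick ascending limb markers, 2 were called higher in AF2 and 1 in KO, and their summed level was 2216 to 2915 CPM in WT, 2882 to 3661 in KO and 3362 to 3937 in AF2. Of 4 markers of the last part of the proximal tubule, 2 (Cyp7b1 and Atp11a) were called higher and 1 (Aadat) lower in AF2, and 1 was called lower in KO. Their summed level was 893 to 1200 CPM in WT, 640 to 978 in KO and 762 to 1117 in AF2. Most of this sum was Aadat, while 3 of the 4 markers had positive differences in each mutant. In KO, DESeq2 also called Slc7a13 higher (adjusted p = 0.0273, with 0.198 by edgeR). The 3 podocyte markers reported here had positive differences in AF2, with 0 called by edgeR or limma-voom, 1 (Podxl) by DESeq2 (adjusted p = 0.0349) and 1 at an unadjusted p under 0.05. Their summed levels were 147 to 219 CPM in WT, 183 to 202 in KO and 223 to 242 in AF2. Intercalated cell markers had positive differences in AF2 for 3 of 3, with 1 called by edgeR and DESeq2 (Slc4a1, edgeR adjusted p = 0.0253) but not by limma-voom (0.0508), and sums of 155 to 198 CPM in WT, 185 to 320 in KO and 205 to 256 in AF2. Neither sum overlapped between AF2 and WT. The part of these shifts in the lower Bhmt2 and Aldh1l1 was not tested. Liver RNA in kidney was low, with Alb at 3.03 to 11.8 CPM and Ahsg at 0 in 12 of 14 libraries. The summed level of 8 hepatocyte markers was 221 to 275 CPM in WT, 69.6 to 140 in KO and 64.5 to 125 in AF2. Most of this sum was Ttr, which was called lower in KO (edgeR adjusted p = 0.0319) and AF2 (0.00428). Of the 5 tested hepatocyte markers, 4 had positive differences in each mutant.

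AF2 and KO kidneys were also compared directly. None of the 5 tested enzymes was called by edgeR, DESeq2 or limma-voom, with 2 (Bhmt2 and Aldh1l1) at an unadjusted p under 0.05, beside 0.333% of all genes called. Uroc1 was the 1 of them whose groups did not overlap, the highest AF2 library (67.6 CPM) being below the lowest KO library (68.5), beside 3.61% of all genes with AF2 lower and no overlap. Its difference was -0.24 ± 0.13 (95% interval -0.51 to 0.03, edgeR adjusted p = 0.500), and it was 0.00 with the library-code run as a term. Bhmt2 differed by -0.48 (95% interval -0.83 to -0.14, edgeR adjusted p = 0.233) and Aldh1l1 by -0.41 (-0.70 to -0.11, edgeR adjusted p = 0.235). For the picked genes the values were 0.36 ± 0.34 for Amdhd1, 0.84 ± 0.25 for Ftcd and -2.95 ± 0.85 for Bhmt, without a test. With the run as a term Amdhd1 turned to -0.30.

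The enzymes and transporters around the chain were examined as 6 lists. Other fates of histidine (Hdc, which makes histamine, the carnosine enzymes and the histidyl-tRNA synthetases, 9 genes tested) had 0 called in KO or AF2 against WT by edgeR, DESeq2 or limma-voom, with 0 and 1 at an unadjusted p under 0.05. Their median log2 difference was -0.15 in KO and 0.02 in AF2, beside medians of -0.004 and 0.005 over all genes tested. Of 10 tested amino acid transporters, Slc38a3, a glutamine, asparagine and histidine transporter, rose in both mutants, from 21.2 ± 7.74 CPM (SD, n = 6) in WT to 35.9 ± 3.51 (n = 4) in KO and 42.5 ± 7.16 (n = 4) in AF2. Its edgeR adjusted p was 0.0367 in KO and 0.000928 in AF2, and both groups overlapped WT. In KO, DESeq2 also called Slc7a9 lower (adjusted p = 0.0401, with 0.0739 by edgeR). The KO call of Slc38a3 stood in 3 of 14 fits that each left out 1 library, with an edgeR adjusted p of up to 0.163 (without KO 3). Slc15a2, a peptide transporter that also carries histidine-containing dipeptides, fell by 0.55 ± 0.14 in AF2, from 130 to 89.2 CPM (edgeR adjusted p = 0.0202). The median over the 10 transporters was -0.11 in KO and -0.17 in AF2. Between the mutants, Slc3a2, the shared heavy chain of amino acid exchangers, was higher in AF2 than KO by 0.52 ± 0.12 (284 against 198 CPM, edgeR adjusted p = 0.0461). The Slc15a2 call was lost without WT 2, WT 5, AF2 3 or AF2 4 (edgeR adjusted p = 0.0564 to 0.0660), and the Slc3a2 call stood in 4 of 14 such fits (up to 0.209, without KO 2). With the run of library codes as a term, Slc3a2 was 0.41 with an edgeR adjusted p of 0.909, in a fit where Vdr was not called between the mutants either.

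The rest of folate metabolism gave no calls. Of 16 other folate enzymes and 5 folate uptake genes, 0 were called in either mutant against WT by edgeR, DESeq2 or limma-voom. In each list and mutant, 1 gene had an unadjusted p under 0.05. The enzymes had medians of -0.005 in KO and -0.01 in AF2, and the uptake genes -0.04 and -0.02.

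In the methionine, choline and betaine list (12 tested), 3 genes were called in AF2 and 0 in KO by edgeR. DESeq2 called 1 (Aldh7a1) in KO and limma-voom 0, with 3 at an unadjusted p under 0.05. Cbs, which condenses homocysteine with serine and so takes homocysteine away from remethylation, rose in AF2 from 50.9 ± 9.99 CPM (SD, n = 6) to 86.3 ± 8.92 (n = 4), by 0.77 ± 0.14 (edgeR adjusted p = 0.000645). It was also higher in AF2 than in KO by 0.74 (edgeR adjusted p = 0.0165). With the run of library codes as a term, this difference of Cbs was 0.39 (edgeR adjusted p = 0.925), in the fit where Vdr also lost its call. The AF2 and WT groups did not overlap. Ahcyl1, a relative of adenosylhomocysteinase, fell by 0.42 ± 0.10 (edgeR adjusted p = 0.0171), and Aldh7a1, which oxidises betaine aldehyde, fell by 0.42 ± 0.11 (edgeR adjusted p = 0.0288). DESeq2 also called Cth lower in AF2 (adjusted p = 0.0378, with 0.217 by edgeR). The Ahcyl1 call was lost without AF2 1 (edgeR adjusted p = 0.0836), that of Aldh7a1 without WT 4, WT 6, AF2 1 or AF2 2 (0.0583 to 0.0872), and that of Cbs between the mutants without KO 1 (0.0760) or KO 2 (0.0548). The list's median was -0.07 in KO and -0.29 in AF2.

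Of 8 tested serine and glycine genes, Psat1, the aminotransferase of serine synthesis, fell in AF2 from 16.7 ± 4.10 CPM (SD, n = 6) to 6.34 ± 2.57 (n = 4), by 1.38 ± 0.30 (edgeR adjusted p = 0.00621). Gldc, the decarboxylase of the glycine cleavage system, was called lower in AF2 by DESeq2 (adjusted p = 0.000621) and limma-voom (0.00817) but not by edgeR (0.0740). In KO, Psat1 stood at 8.68 ± 4.44 CPM (n = 4), with an edgeR adjusted p of 0.121. In KO 0 of the 8 were called by any of the 3 tools and 4 had an unadjusted p under 0.05, and the list's median was -0.27 in KO and -0.16 in AF2. With the run of library codes as a term, the calls of Slc38a3, Cbs, Ahcyl1, Aldh7a1 and Psat1 were lost (adjusted p = 0.261, 0.219, 0.0679, 0.143 and 0.0543 in AF2), and that of Slc38a3 in KO (0.0989).

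**Figure D3:**
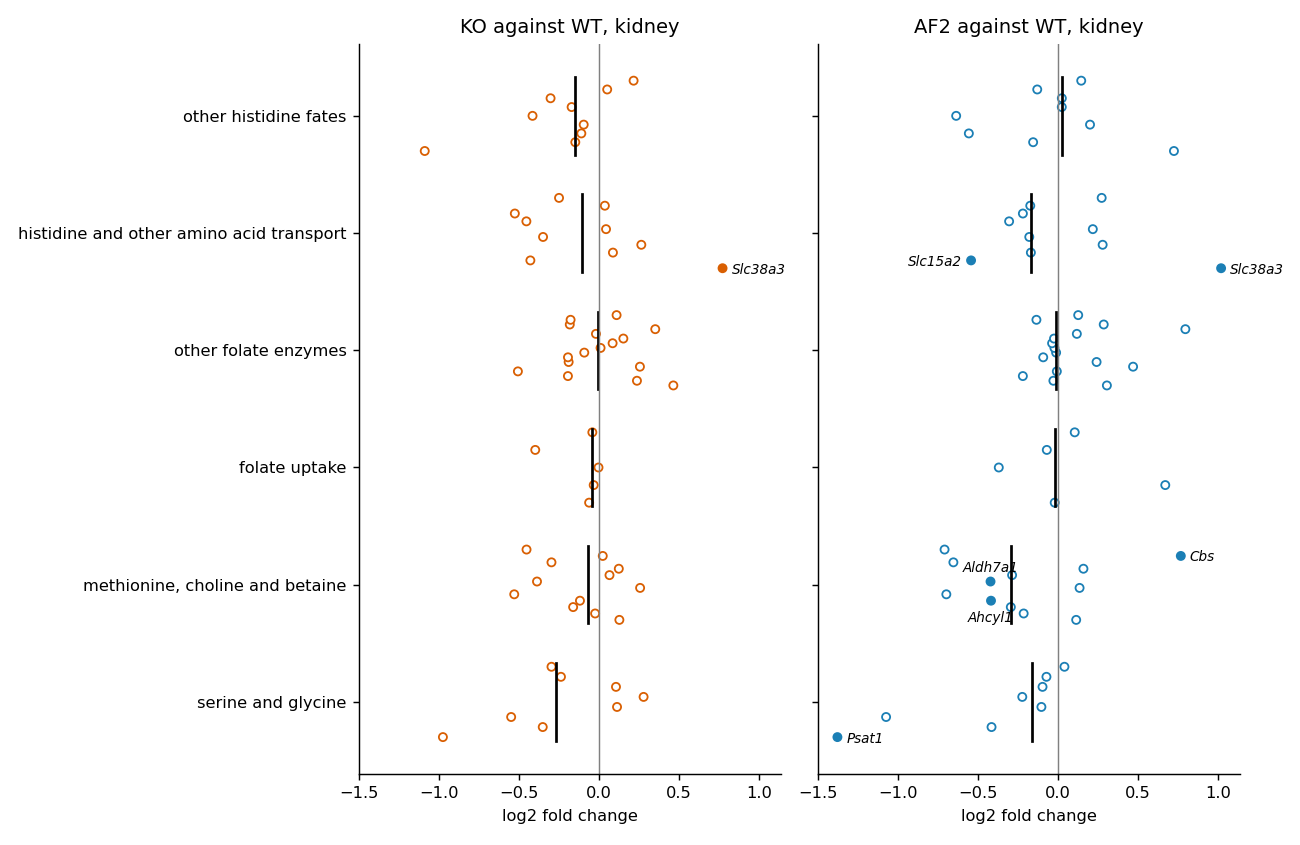
Log2 fold change in kidney against WT of every tested gene of the 6 pathway lists, KO on the left and AF2 on the right, with filled points for genes called at an adjusted p under 0.05 and vertical bars for list medians. Slc38a3 is the 1 filled point in KO, while AF2 has 6, with Cbs and Slc38a3 to the right and Slc15a2, Ahcyl1, Aldh7a1 and Psat1 to the left.

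In duodenum, the histidine enzymes and both homocysteine methyltransferases were close to absent, and 3 of the 9 enzymes, Mthfd1, Aldh1l1 and Shmt1, passed the filter. None of the 3 was called in KO or AF2 against WT by edgeR, DESeq2 or limma-voom, beside 0.0226% and 0.0677% of 13302 genes, and the same held between the mutants, beside 0.015%. Shmt1 ran from 11.4 CPM through 20.7 to 29.9 in WT and held 44.5, 24.3, 31.2 and 30.6 in KO. The AF2 libraries held 32.6, 20.3, 32.5 and 31.7 CPM. Of the 8 mutant libraries 6 lay above the WT range, but the groups overlapped. Its differences were 0.64 ± 0.23 in KO (edgeR adjusted p = 0.291, 95% interval 0.17 to 1.11) and 0.48 ± 0.23 in AF2 (edgeR adjusted p = 0.415, 0.0097 to 0.95).

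Duodenal Aldh1l1 ran from 29.9 CPM through 43.0 to 57.4 in WT. It held 25.6, 45.6, 30.3 and 24.2 CPM in KO and 40.5, 46.3, 44.1 and 42.1 in AF2. The differences in the edgeR fit were -0.44 ± 0.19 in KO (adjusted p = 0.362, 95% interval -0.84 to -0.052) and 0.02 ± 0.19 in AF2 (adjusted p = 0.983, -0.36 to 0.40). Mthfd1 ran from 28.4 CPM through 33.7 to 43.2 in WT and held 38.4, 32.9, 38.4 and 38.8 in KO and 32.1, 24.0, 36.8 and 23.3 in AF2. Its differences were 0.10 ± 0.17 in KO (edgeR adjusted p = 0.865) and -0.26 ± 0.17 in AF2 (edgeR adjusted p = 0.574). At an unadjusted p under 0.05 stood 2 of the 3 genes in KO (Aldh1l1 and Shmt1) and 1 in AF2 (Shmt1).

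Whether a genotype effect differed between the tissues was tested for these 3 enzymes in 1 fit of all 28 libraries. Neither mutant gave a call by edgeR, DESeq2 or limma-voom, beside 0.0535% of 14944 genes for KO and 0.381% for AF2, and in each 1 enzyme had an unadjusted p under 0.05. The kidney minus duodenum difference of effect was -0.59 ± 0.25 for Shmt1 in KO (edgeR adjusted p = 0.505) and -0.55 ± 0.24 for Aldh1l1 in AF2 (edgeR adjusted p = 0.385).

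The other 6 enzymes gave 46 duodenal reads in WT, 9 in KO and 1 in AF2. Uroc1 gave 7 reads, all in WT 3, and Bhmt2 gave 1, in the same library. Amdhd1 gave 2 reads in WT 2 and 1 in KO 3. Ftcd gave 3 reads each in WT 2 and WT 3, 1 in WT 4 and 2 in KO 3, and Bhmt gave 4 each in WT 2 and WT 3 and 3 in KO 2. Hal gave 1, 10, 3, 5, 0 and 2 reads in WT 1 to WT 6, 3 in KO 3 and 1 in AF2 2.

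The duodenal libraries that held these reads also held liver transcripts. The summed level of 8 hepatocyte markers was 435 CPM in WT 3, 215 in KO 3, 131 in WT 4, 110 in KO 2 and 53.2 in WT 2, and 13.2 to 30.6 in the other 9 libraries. Albumin RNA stood at 220, 107, 59.9, 53.2 and 16.8 CPM in those 5 libraries and at 0 to 1.98 in the others. The 5 libraries held 52 of the 56 reads of the 6 enzymes. The part of liver RNA in these reads was not tested, and the 3 tested enzymes showed no call with or without any 1 of these libraries.

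**Figure D4:**
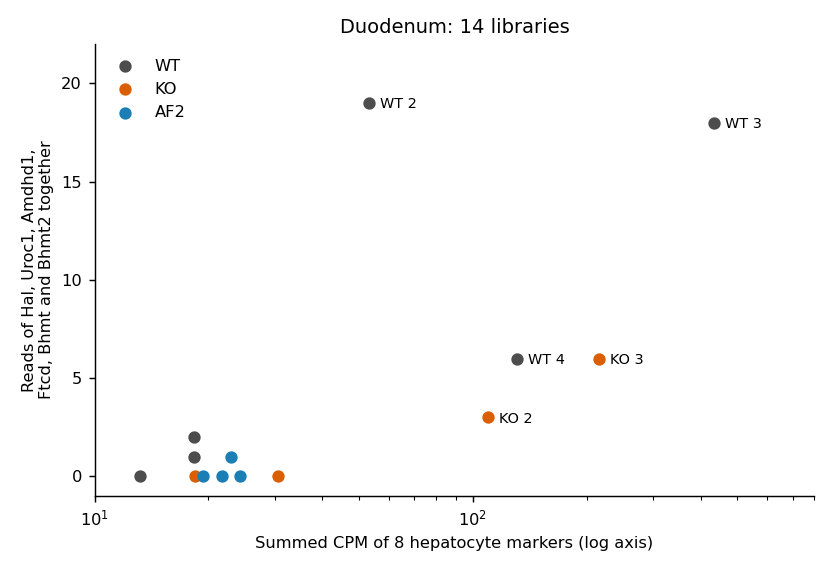
Each point is 1 of the 14 duodenal libraries, with the summed level of 8 hepatocyte markers in CPM on a log axis and the reads of Hal, Uroc1, Amdhd1, Ftcd, Bhmt and Bhmt2 together on the vertical axis. The 5 libraries with 3 or more such reads are also the 5 with the most hepatocyte marker RNA, and WT 2, with 19 reads, is the deepest library.

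Between tissues of WT mice, the 3 enzymes tested in both were all higher in kidney, beside 69.9% of 14944 genes called in either direction and 34.3% called higher in kidney. Shmt1 was 3.96-fold higher (log2 1.99 ± 0.16, edgeR adjusted p = 1.10e-13), Mthfd1 3.40-fold (1.77 ± 0.12, 6.31e-16) and Aldh1l1 2.38-fold (1.25 ± 0.15, 3.40e-09). Uroc1 gave 547 reads in WT kidney against 7 in WT duodenum, Bhmt2 635 against 1, Ftcd 70 against 7, Bhmt 45 against 8 and Amdhd1 24 against 2. Hal went the other way, with 1 read in WT kidney and 21 in WT duodenum, a read rate 12.1-fold higher in duodenum with an exact 95% counting interval of 1.95 to 500.4. Of the duodenal Hal reads, 10 were in WT 2, 3 in WT 3 and 5 in WT 4, which also held liver transcripts. WT 1 held 1 and WT 6 held 2. The part of liver RNA in this difference was not tested.

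For the 3 picked genes, the genes with the most similar levels over the 14 kidney libraries were listed among 9254 tested genes of moderate or high level (9255 for Bhmt). The 14 libraries include the 3 genotypes, so a gene that differs between genotypes in the same way scores high, and the values are descriptions. Amdhd1 was most like Cyp27b1, which makes the active form of vitamin D (Pearson r = 0.935), Glul, glutamine synthetase (0.921), and the transcription factor Foxc1 (0.919). Cyp27b1 stood at 1.87 ± 0.91 CPM (SD, n = 6) in WT, 115 ± 55.6 (n = 4) in KO and 223 ± 138 (n = 4) in AF2. Ftcd was most like AW822252 (0.945), Phyh, a peroxisomal hydroxylase (0.924), and Oxct1, which uses ketone bodies (0.922). Of the genes reported here, Bhmt was most like Gcdh (0.921) and Spink1 (0.866).

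The nearest tested genes on the chromosome were examined beside each enzyme. Lta4h and Snrpf, which flank the Hal and Amdhd1 pair, and Lss and Col6a2, which flank Ftcd, were not called in either mutant. Zxdc, on the higher side of Uroc1, was not called. The nearest tested gene on the lower side of Uroc1, Txnrd3, is not close, ending at chr6:89675529 where Uroc1 starts at chr6:90333284. Txnrd3 fell by 0.65 in KO (edgeR adjusted p = 0.0194) and by 0.77 in AF2 (edgeR adjusted p = 0.00150), against the rise of Uroc1. Jmy on the lower side of Bhmt and Dmgdh on the higher side of Bhmt2 were not called, with Dmgdh at -0.29 in AF2 (edgeR adjusted p = 0.515). Syne2 and A430103D13Rik beside Mthfd1, Gm44421 and Slc41a3 beside Aldh1l1, and Smcr8 and Dhrs7b beside Shmt1 were not called in either mutant.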

How the data were processed

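Raw counts per gene symbol were deposited by the authors as 1 table per tissue of 14 libraries, per the file headers, with no normalisation. RNA was taken up in TRIzol and libraries made with a QuantSeq kit that reads 3′ ends, per the labels' protocols. The submitters' processing notes name mm10 and limma 3.34.9. The aligner, the counter and the use of strand were not given in the sources used here. All deposited values were even (0 odd ones), so reads are given as counts divided by 2, while tests used the counts as deposited. Intervals and limits from reads cover counting error only. No pair of libraries held identical values, and the smallest chi-square per degree of freedom between replicates was 1.96 in kidney and 5.00 in duodenum. In kidney, AF2 4 stood apart from the other AF2 libraries, at 10.1 to 10.6 against 1.96 to 2.92 among those. WT 1 kidney held 828 CPM of summed immune markers, where the other WT kidneys held 83.0 to 125. Depth ranged from 3725648 to 6492228 counts in kidney and 3713352 to 25181916 in duodenum.

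Groups came from the sample titles. Each tissue was fitted in edgeR 4.0.16 (R 4.3.3) with filterByExpr, TMM scaling and robust quasi-likelihood F tests, two-sided, on all 14 libraries, with genotype as the only term. The call threshold was 0.05 after Benjamini-Hochberg adjustment across every gene tested. SE is |log2 fold change| divided by √F, and 95% intervals of a log2 difference use the t distribution with the degrees of freedom of that F test. Tissue differences came from 1 fit of 28 libraries and 14944 genes. Alternatives were DESeq2 1.42.0, limma-voom 3.58.1, other scaling, no filter, halved counts, blocks and left-out libraries. Steps were tested on simulated data. Symbols matched GENCODE names for 97.3% (kidney) and 97.2% (duodenum).

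The text names all 9 members, up to 4 called genes of each list and contrast, the 3 genes most like each picked gene, and the nearest tested neighbours. A proximal tubule marker and a podocyte marker of the fixed lists and a gene similar to Bhmt are not reported here, and those marker values in the text are over the other 6 and the other 3. Members and lists were chosen with earlier results of these data known.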

Additional observations from a re-analysis of the deposited data

Results flagged for a closer look

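Among 33 groups of libraries of a tested enzyme, 3 held a library set apart from the rest of its group, and chance alone gives about 1 in 20. In WT kidney, WT 1 held Ftcd at 2.16 CPM, below the next library at 4.76, and without WT 1 the differences from WT were still positive in both mutants. In duodenum, KO 2 held Mthfd1 at 32.9 CPM where the other 3 KO libraries held 38.4 to 38.8. AF2 2 held duodenal Shmt1 at 20.3 CPM where the other 3 held 31.7 to 32.6, and without AF2 2 the difference of Shmt1 from WT was 0.64 and was not called.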

How the results depend on the processing

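The number of tested enzymes called stayed at 1 for KO and 3 for AF2 against WT in kidney, at 0 between the mutants and in duodenum, at 0 for both tissue interactions and at 3 between the tissues under DESeq2 size factors, no filter on low counts, DESeq2, limma-voom and halved counts, and under fits of only the groups compared where these were run. The exception was the library code block for AF2 against WT in kidney, which left 1 enzyme (the cause was not tested). Leaving out 1 library gave 2 to 3 for AF2 against WT in kidney, 2 being without AF2 2, and no other change. With halved counts Bhmt did not pass the filter. For levels around the group mean, at most 2 same-numbered pairs of a check correlated above 0.1. Between kidney and duodenum, r of same-numbered samples was 0.0037 to 0.14 in WT, 0.047 to 0.074 in KO and -0.12 to 0.014 in AF2. The labels do not say whether such samples share a mouse, and the fit of 28 libraries took them as separate. With the replicate block the numbers called were 1, 3 and 0 in kidney and 0 in duodenum. Among the listed genes, the replicate block ended the calls of Slc15a2, Ahcyl1, Aldh7a1 and Psat1 in AF2 against WT (adjusted p = 0.0759, 0.102, 0.105 and 0.0598) and of Slc3a2 between the mutants (0.0710), and the last was also lost with DESeq2 size factors (0.0518) and in the fit of only the groups compared (0.0937). Counts over all genes moved by more than 1.5 times. Without the filter they were 252, 590 and 193 in kidney for KO against WT, AF2 against WT and AF2 against KO, beside 114, 366 and 45. They were 215, 240 and 106 in duodenum beside 3, 9 and 2, and 23 for the KO interaction beside 8. DESeq2 gave 220 and 150 for KO against WT and AF2 against KO in kidney, 110, 154 and 93 in duodenum, and 66 and 187 for the interactions beside 8 and 57. Limma-voom gave 0 and 1 for AF2 against WT and AF2 against KO in duodenum and 2 and 28 for the interactions. The library code block gave 25, 121 and 1 in kidney and 1, 131 and 5 in duodenum, the replicate block 1 and 14 for AF2 against WT and AF2 against KO in duodenum and 36 for the AF2 interaction, halved counts 8 for KO against WT in duodenum, and fits of only the groups compared 177 for KO against WT in kidney and 0 and 50 for AF2 against WT and AF2 against KO in duodenum. Leaving out 1 library gave 38 (without KO 4) to 206 (without AF2 4) for KO against WT in kidney, 22 to 78 between the mutants, 1 to 229 and 0 to 217 (both highest without WT 4) in duodenum, and 0 to 23 and 19 to 123 for the interactions. Of the 9 enzymes, 6 had too few duodenal reads to pass the filter in duodenum and were not tested within that tissue.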
